A study of Homo sapiens with 6 samples.

Results

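The cytochrome P450 genes were followed in HepG2, an established human hepatoma line, after knockdown of KIF11, the kinesin that pushes spindle poles apart in mitosis. They were taken as every gene of the count table whose symbol has the form CYP, family number, letter and number, apart from CYP51A1 of cholesterol synthesis, which gave 55 of 20030 genes. The comparison was between 3 libraries of cells with a control hairpin (sh-ctrl) and 3 of cells with a hairpin that targets KIF11 (sh-KIF11). Both groups had received the hairpin by lentivirus as stable lines, with no other treatment in the labels, so each group stands for its own infected line and not for a drug or a time course. The tables name the knockdown columns only as shRNA, and they were read as sh-KIF11 because the labels hold no other hairpin besides the control.

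P450 enzymes are heme proteins that insert an oxygen atom into their substrate with electrons passed on by a partner protein. In the endoplasmic reticulum that partner is the reductase POR, helped by cytochrome b5, and in mitochondria it is the pair FDXR and FDX1. Families 1 to 3 are best known in liver for handling drugs and other foreign compounds, and their genes answer to the receptors AHR, PXR (NR1I2) and CAR (NR1I3). Other families make bile acids from cholesterol, activate or destroy vitamins A and D, make steroid hormones, or hydroxylate fatty acids.

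The libraries held between 18167773 and 19583282 counts. KIF11 itself fell in sh-KIF11, with 1976, 2088 and 2039 counts with sh-ctrl and 1448, 1478 and 1240 with sh-KIF11, or -0.75 ± 0.0573 (SE) on the log2 scale with an adjusted p of 4.22e-15 by edgeR's quasi-likelihood test, which is the test behind every adjusted p below. Of 8 hepatocyte markers 7 were lower and TTR did not pass, where 34.7% of all tested genes were lower. The summed level of the 8 went from between 31900 and 33400 CPM (read counts scaled by TMM factors) to between 14100 and 15300. DCN, LUM and COL3A1 of fibroblasts, CDH5, KDR and TEK of endothelium, and PTPRC and CD3E of leukocytes had 3 counts or fewer in every library. The 6 fibroblast markers summed to between 2.55 and 3.93 CPM with sh-ctrl and between 1.4 and 2.04 CPM with sh-KIF11. The 5 endothelial markers summed to between 3.16 and 3.56 and between 4.69 and 4.98 CPM. The 6 leukocyte markers summed to between 2490 and 2980 and between 508 and 640 CPM, with LYZ alone at means of 2610 and 511 CPM. The part of these shifts in the P450 results was not tested, and in bulk libraries fewer cells with a transcript and less of it per cell cannot be told apart. The labels do not say whether the libraries came from separate cultures, so the p-values measure the spread between these libraries, and an exact two-sided permutation test of 3 against 3 cannot go below 0.1 for a single gene.

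Promoter windows are shown for 6 members. CYP1A1, CYP1A2, CYP2E1 and CYP3A5 rose by at least 2-fold, CYP3A7 is the neighbour of CYP3A5 that did not pass, and CYP2W1 fell. Each runs from 250 bases before to 50 bases after the RefSeq start site on the gene's own strand (GRCh38.p14). Capitals mark the searched letters on either strand. They are the core that AHR reads, GCGTG, the half-site of many nuclear receptors, AGGTCA, the half-site form known from PXR and VDR elements, AGTTCA, and a site of the HNF4 kind, CAAAGTCCA. The other searches were the HNF1 half-site, GTTAAT, the C/EBP kind of site, TTGCNNAA, and the TATA box, TATAAA. CYP1A1 lies at chr15:74725479-74725778 on the minus strand, CYP1A2 at chr15:74748595-74748894 on the plus strand, CYP2E1 at chr10:133527113-133527412 on the plus strand, CYP3A5 at chr7:99679947-99680246 on the minus strand, CYP3A7 at chr7:99735147-99735446 on the minus strand and CYP2W1 at chr7:982931-983230 on the plus strand.
CYP1A1: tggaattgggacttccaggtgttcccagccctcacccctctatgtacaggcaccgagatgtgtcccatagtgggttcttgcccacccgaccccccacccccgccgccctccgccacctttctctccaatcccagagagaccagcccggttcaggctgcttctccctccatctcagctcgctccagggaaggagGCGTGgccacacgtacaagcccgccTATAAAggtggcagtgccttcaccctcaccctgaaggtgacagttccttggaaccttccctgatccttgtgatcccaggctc
CYP1A2: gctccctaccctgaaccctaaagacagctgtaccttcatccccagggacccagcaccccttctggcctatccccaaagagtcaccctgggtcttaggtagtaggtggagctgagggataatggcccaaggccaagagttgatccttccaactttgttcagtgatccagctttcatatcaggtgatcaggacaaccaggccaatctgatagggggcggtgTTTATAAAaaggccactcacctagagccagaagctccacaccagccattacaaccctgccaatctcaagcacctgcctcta
CYP2E1: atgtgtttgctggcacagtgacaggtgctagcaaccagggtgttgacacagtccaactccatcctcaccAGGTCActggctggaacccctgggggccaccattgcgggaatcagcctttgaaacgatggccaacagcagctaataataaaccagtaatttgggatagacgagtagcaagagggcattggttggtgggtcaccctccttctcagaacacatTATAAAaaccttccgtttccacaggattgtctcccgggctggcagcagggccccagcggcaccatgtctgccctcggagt
CYP3A5: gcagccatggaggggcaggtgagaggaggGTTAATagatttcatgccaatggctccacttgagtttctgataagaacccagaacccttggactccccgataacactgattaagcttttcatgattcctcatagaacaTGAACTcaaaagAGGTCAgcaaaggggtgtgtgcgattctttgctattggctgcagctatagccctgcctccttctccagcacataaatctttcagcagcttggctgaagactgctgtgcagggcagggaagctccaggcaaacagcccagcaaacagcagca
CYP3A7: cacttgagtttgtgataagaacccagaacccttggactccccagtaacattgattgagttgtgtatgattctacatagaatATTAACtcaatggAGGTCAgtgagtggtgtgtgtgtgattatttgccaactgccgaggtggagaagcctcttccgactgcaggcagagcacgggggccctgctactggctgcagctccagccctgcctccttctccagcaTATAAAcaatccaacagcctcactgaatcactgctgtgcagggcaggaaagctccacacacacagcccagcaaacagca
CYP2W1: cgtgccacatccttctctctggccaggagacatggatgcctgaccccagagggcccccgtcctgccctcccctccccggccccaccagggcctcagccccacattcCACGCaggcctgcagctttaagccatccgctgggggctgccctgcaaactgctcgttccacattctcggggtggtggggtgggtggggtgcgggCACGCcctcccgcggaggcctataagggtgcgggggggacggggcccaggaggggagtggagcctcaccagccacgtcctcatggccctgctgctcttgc

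CYP1A1 and CYP1A2 are transcribed away from each other, with 23.2 kb between the gene bodies. The CYP1A1 window held the AHR core 57 bases before the start site and a TATA box 32 bases before it, whereas that of CYP1A2 held TATAAA on both strands, with the matches overlapping, and no AHR core. The core was present in 36.5% of all 35116 promoter windows and in 10 of the 38 P450 windows found, and CYP2W1, which fell, held it 2 times. CYP3A5 held the PXR and VDR form of the half-site on the other strand, 113 bases before its start site, followed by AGGTCA at 101 bases. CYP3A7 held AGGTCA at 156 bases before its start site and a TATA box at 29 bases, which the CYP3A5 window lacked. The AGGTCA half-site was found in 12 of the 38 P450 windows and 13.8% of all windows, the TATA box in 14 of 38 and 11.5%, and the HNF4 kind of site in 5 of 38 and 0.384%. Those 5 were CYP2C8, CYP2A6, CYP2A7, CYP2B6 and CYP2A13, none of which had enough counts to be tested. CYP2A6, CYP2A7 and CYP2A13 had no count in any library. The PXR and VDR form was in 4 P450 windows and 10.4% of all windows, the HNF1 half-site in 3 and 6.88% and the C/EBP kind in 2 and 10.5%. These matches describe letters in a short window, and no binding was measured.

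Of the 55 P450 genes, 15 had no count in any library and 29 passed the filter on low counts and were tested. In sh-KIF11, 15 of the 29 rose, 6 fell and 8 did not pass, where 34.4% of all 12369 tested genes rose, 34.7% fell and 69.1% were called either way. Scaled by library totals alone, 20 P450 genes were higher and 4 lower, and the higher genes made up 73.6% of all calls in the transcriptome instead of 49.8%. That scaling moved the median of all genes by 0.23 on the log2 scale. With at least a 2-fold change, 11 P450 genes rose and 1 fell, against 8.13% and 3.52% of all tested genes. Above the filter's cutoff in all 6 libraries, a change of that size was called higher in 6 of 23 members and lower in none, against 4.57% and 3.34% of such genes. CYP11A1, CYP1A2, CYP26A1 and CYP2E1 passed the filter only through their sh-KIF11 level and so had to differ, and CYP26B1 and CYP8B1 were under the cutoff in some libraries. Among the 23 members above the cutoff in all 6 libraries, 10 rose, 5 fell and 8 did not pass, beside 32.4% and 36.7% of the 11566 such genes, with a median log2 fold change of 0.41 against -0.02. Groups without overlap were common. Every sh-KIF11 library lay above every sh-ctrl library in CPM for 17 of the 29 tested members and 4377 of the 12369 tested genes. Every one lay below for 7 members and 4431 genes.

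Among the P450 genes above the cutoff in all 6 libraries, median fold changes were higher at lower level, as among all such genes. With 23 members this relation was not tested. Of the 13 members in all 6 libraries with a mean under 10 CPM, 6 rose, 2 fell and 5 did not pass, with a median log2 fold change of 0.64 against 0.21 over 2176 genes of that level, of which 38.2% rose and 16.1% fell. Of the 10 members at 10 CPM or more, 4 rose, 3 fell and 3 did not pass, with a median of 0.14 against -0.06 over 9390 genes. Across genes, level and fold change had a Spearman rho of -0.285 over the 23 members and -0.271 over all 11566 genes, a description over genes that share libraries.

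**Figure D1:**
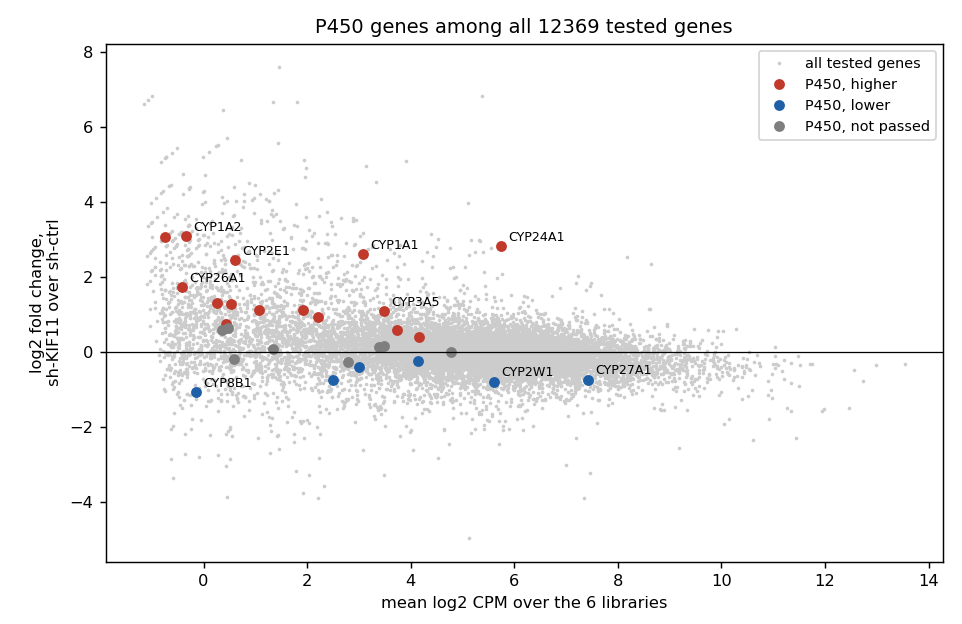
Mean level (log2 CPM over the 6 libraries, horizontal) against log2 fold change of sh-KIF11 over sh-ctrl (vertical) for all 12369 tested genes (grey dots) and the 29 tested P450 genes (red higher, blue lower, dark grey not passed). CYP24A1 and CYP1A1 lie well above 0, though other tested genes rise further. CYP27A1, farthest right of the P450 genes, and CYP2W1 lie below 0.

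Summed over the 55 genes in the deposited FPKM, the P450 mRNA pool lay within a narrow range in all libraries while its make-up differed. The sum was 133, 132 and 128 FPKM in sh-ctrl and 133, 137 and 133 FPKM in sh-KIF11. These FPKM carry no TMM factors, and in limma on log2(FPKM + 1) 68.5% of all calls were higher, against 49.8% in the main fit. CYP27A1 went from 77.7 to 54.4 FPKM, while the TMM-scaled fit gave a fold of 0.598. In TMM-scaled CPM, without length, the sum was 433 ± 11.6 and 438 ± 6.51 (SD, n = 3). A sum per length with TMM factors was not made. CYP27A1 made up 59, 59.4 and 59% of it with sh-ctrl and 40.7, 41.2 and 39.5% with sh-KIF11. CYP24A1 went from 1.97, 2.1 and 2.35% to 16.3, 16.4 and 17.9%, so its share in every sh-KIF11 library was above that in every sh-ctrl library. CYP2W1 went from 15.8% ± 0.814 to 10.2% ± 0.846 (SD, n = 3). Without these 3 genes the pool was 30.1 ± 0.513 FPKM in sh-ctrl and 43.6 ± 1.04 FPKM in sh-KIF11, a difference not put on the TMM scale. In each sh-ctrl library 28 members were above 3 counts, and 32, 34 and 33 were in sh-KIF11. Of all genes in the table, between 63 and 63.7% were above 3 counts with sh-ctrl and between 66.8 and 67% with sh-KIF11, and of the members 50.9% and between 58.2 and 61.8%.

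**Figure D2:**
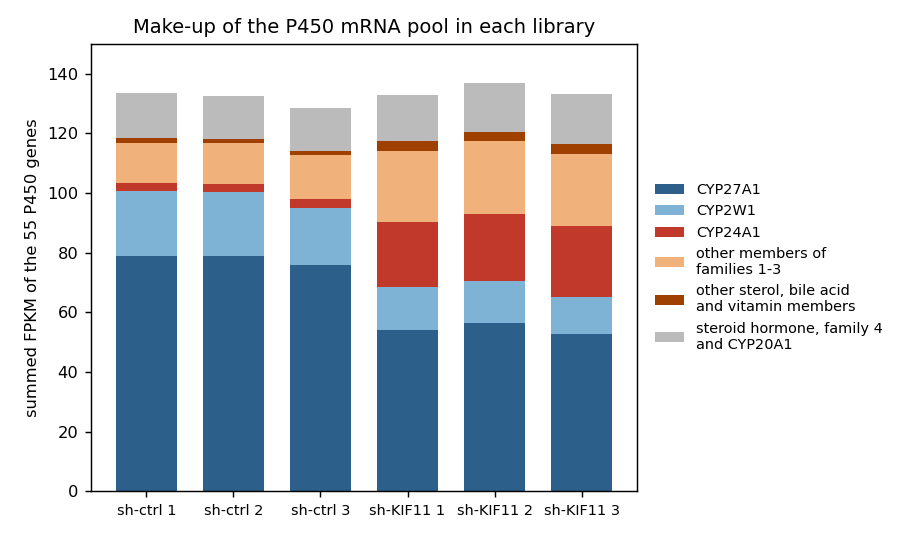
Summed FPKM, without TMM factors, of the 55 P450 genes in each of the 6 libraries (bars), divided into CYP27A1, CYP2W1, CYP24A1 and 3 groups of other members. The bars reach 128 to 133 FPKM in sh-ctrl and 133 to 137 FPKM in sh-KIF11, with less CYP27A1 and CYP2W1 and more CYP24A1 in the latter.

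In families 1 to 3 most tested members rose. Of their 24 members, 5 had no count, 13 were tested, 9 rose, 1 fell and 3 did not pass, beside the 34.4% of all tested genes that rose, with a median log2 fold change of 0.94 beside 0.00. Above the cutoff in all 6 libraries there were 11, of which 7 rose, beside 32.4% of all such genes, 1 fell and 3 did not pass, with a median of 0.75. The 12 members of the sterol, bile acid and vitamin families were divided. With 3 at 0 and 7 tested, 4 rose, 2 fell and CYP27B1 did not pass, beside 34.4% and 34.7% of all tested genes. The median of the 7 was 1.11. Of the 4 above the cutoff in all libraries 2 rose, 1 fell and 1 did not pass, with a median of 0.85. The difference between these groups of genes was not tested, since genes are not replicates of a condition. By summed FPKM, without TMM factors, families 1 to 3 went from 34.7 ± 0.814 to 37.8 ± 0.981 (SD, n = 3). On that scale the sterol, bile acid and vitamin families went from 82.1 ± 1.47 to 80.2 ± 1.55. In TMM-scaled CPM these sums went from 104 ± 4.78 to 111 ± 2.89 and from 234 ± 4.36 to 231 ± 4.04.

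**Figure D3:**
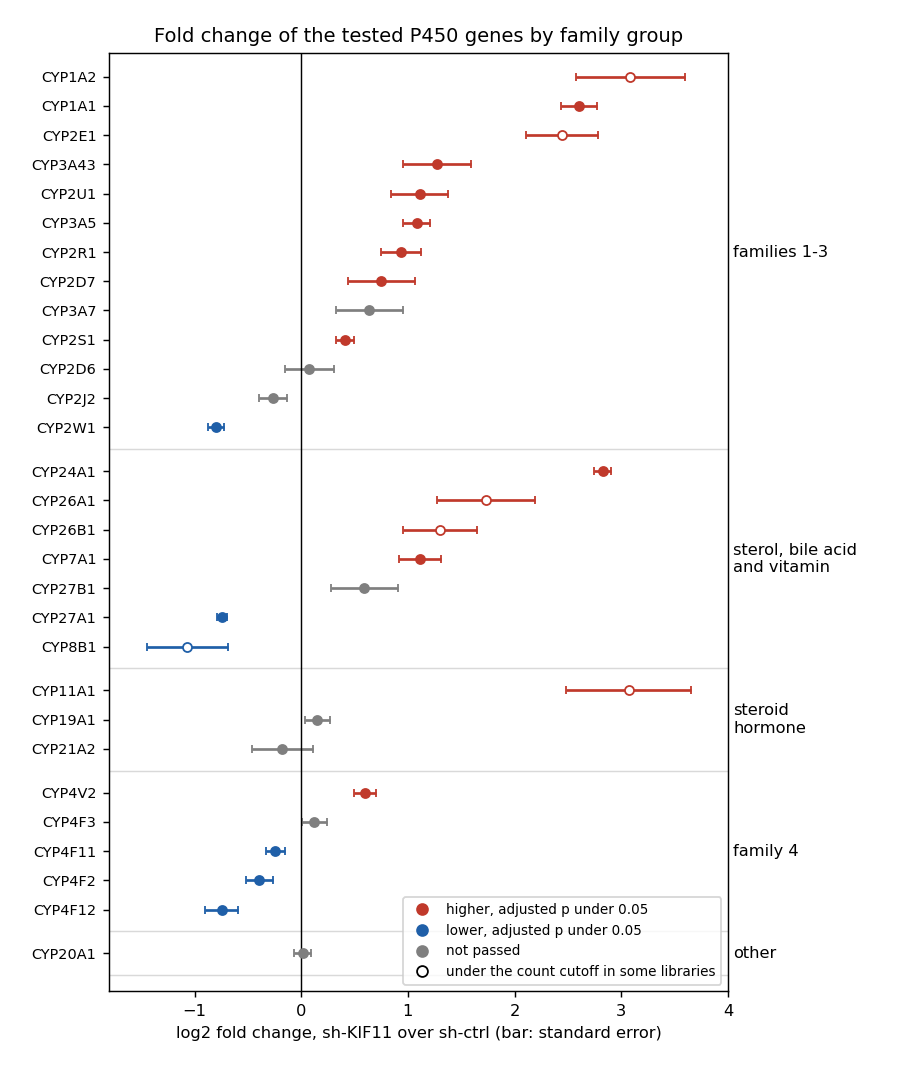
Log2 fold change of sh-KIF11 over sh-ctrl (horizontal, bars standard error of the edgeR fit, 3 libraries against 3) for the 29 tested P450 genes, ordered within family groups. Filled points were above the count cutoff in all 6 libraries, and families 1-3 hold 9 red points (higher) and 1 blue point (CYP2W1, lower).

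Family 1 turns over polycyclic aromatic compounds and is the classical output of AHR. CYP1A1 had 41, 48 and 31 counts with sh-ctrl and 213, 280 and 345 with sh-KIF11. The groups did not overlap, and the log2 fold change was 2.61 ± 0.17 (SE) with an adjusted p of 3.07e-17, that is 6.09-fold. CYP1A2, its liver neighbour, had 3, 3 and 1 counts against 18, 29 and 24, a ratio of 8.85 once scaled to effective library size (95% counting interval 4.08 to 22.8) with an adjusted p of 1.24e-06. CYP1A2 had passed the filter only through its sh-KIF11 level and so had to differ. CYP1B1, the third member, had 0, 3 and 0 counts against 0, 2 and 2 and no difference was detectable at this depth.

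The CYP3A genes on chromosome 7, in liver the family of the broadest drug range, lie side by side. CYP3A5 had 99, 120 and 148 counts with sh-ctrl and 328, 313 and 252 with sh-KIF11, a log2 fold change of 1.08 ± 0.128 (adjusted p = 7.90e-10). CYP3A43, of little known activity, had 18, 12 and 10 counts against 41, 30 and 40, a log2 fold change of 1.27 ± 0.318 (adjusted p = 0.000539). In both genes every sh-KIF11 library was above every sh-ctrl library. CYP3A7, the fetal form, had 12, 25 and 15 counts against 34, 31 and 28, a log2 fold change of 0.64 ± 0.313 that did not pass (adjusted p = 0.067). It passed without sh-ctrl library 2 (0.98, adjusted p = 0.0189) but not without any other single library, nor in DESeq2 (adjusted p = 0.134). It also passed with upper-quartile scaling, library totals or at least 10 counts in every library. In limma on log2(FPKM + 1), where 68.5% of all calls were higher, it passed as well (0.28, adjusted p = 0.00549). In FPKM it had 3.86, 3.84 and 4.38 against 5.49, 4.88 and 4.9, the fifth highest mean of all P450 genes, yet it had 5.3 counts per FPKM where CYP3A5 had 102. Of its 150-base transcript windows, 74% were also in the readthrough gene CYP3A7-CYP3A51P, which had 0 counts in every library, so its count is uncertain. CYP3A4, the main adult form, had 2, 3 and 1 counts against 4, 7 and 1 and was not tested.

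In family 2, the genes that rose were mostly low ones. CYP2E1, which oxidises ethanol, had 9, 5 and 8 counts with sh-ctrl and 53, 46 and 40 with sh-KIF11, with a log2 fold change of 2.44 ± 0.341 (adjusted p = 3.86e-08). CYP2U1, a fatty acid hydroxylase, had 29, 18 and 18 counts against 58, 44 and 59, with a log2 fold change of 1.11 ± 0.266 (adjusted p = 0.000331). Neither gene's groups overlapped, but CYP2E1 had passed the filter only through its sh-KIF11 level and so had to differ. CYP2R1, which makes 25-hydroxyvitamin D, rose by 0.94 ± 0.187 on the log2 scale (adjusted p = 2.64e-05) from a mean of 3.04 to 5.84 CPM. CYP2S1, a form found mostly outside the liver, rose by 0.41 ± 0.0878 (adjusted p = 7.37e-05), and its libraries were close together at 15, 15 and 15.5 CPM against 20.2, 20.1 and 20 CPM.

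CYP2W1, a form of fetal and tumour tissue, was the most abundant member of families 1 to 3 by FPKM and the one that fell. It had 1151, 1179 and 937 counts with sh-ctrl and 767, 755 and 630 with sh-KIF11, a log2 fold change of -0.80 ± 0.0734 (adjusted p = 1.01e-12). CYP2J2, an arachidonic acid epoxygenase, had means of 7.48 and 6.21 CPM and did not pass (-0.27 ± 0.135, adjusted p = 0.0781), nor did CYP2D6, which metabolises many drugs (0.08 ± 0.234, adjusted p = 0.783).

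CYP2D7, the gene or pseudogene beside CYP2D6, was called higher by 0.75 ± 0.316 on the log2 scale (adjusted p = 0.033), but that call depended on single libraries. The adjusted p was 0.126 without sh-ctrl library 2, 0.0565 without sh-ctrl library 3, 0.195 without sh-KIF11 library 1, 0.0541 without sh-KIF11 library 2 and 0.0798 in DESeq2. The transcripts of CYP2D6 and CYP2D7 shared 1.47% and 1.45% of their 150-base windows. Of the untested family 2 genes, CYP2B6, a target of CAR and PXR, had 7, 6 and 5 counts against 9, 20 and 11, CYP2C8 had 3, 2 and 0 against 3, 9 and 10, and CYP2C18 had 0, 2 and 4 against 0, 3 and 5. Without a low-count filter CYP2C8 had an adjusted p of 0.0469 and CYP2B6 of 0.147.

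Among the members above the cutoff in all 6 libraries, the largest change was in vitamin D breakdown. CYP24A1, the mitochondrial 24-hydroxylase that breaks down active vitamin D, had 221, 227 and 242 counts with sh-ctrl and 1766, 1927 and 1914 with sh-KIF11. The groups were far apart, at 13.1 ± 1.07 and 92.7 ± 4.53 CPM (SD, n = 3), a log2 fold change of 2.82 ± 0.0756 (SE) or 7.08-fold (adjusted p = 1.92e-30). CYP27B1, which makes the active hormone, had 20, 12 and 17 counts against 25, 33 and 27. Its groups did not overlap, but the log2 fold change of 0.59 ± 0.318 did not pass (adjusted p = 0.0943). Its exons overlap those of METTL1 on the same strand, which had between 258 and 386 counts. VDR, the receptor through which vitamin D induces CYP24A1, had 1, 4 and 2 counts with sh-ctrl and 2, 8 and 4 with sh-KIF11, too few to be tested.

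Family 26 clears retinoic acid, and both detected members were called higher. Both were low, CYP26A1 having passed the filter only through its sh-KIF11 level and CYP26B1 having been under its cutoff in some libraries, so the filter itself favoured this direction. CYP26A1 had 7, 6 and 2 counts with sh-ctrl and 21, 23 and 14 with sh-KIF11, a log2 fold change of 1.73 ± 0.459 (adjusted p = 0.00101), and 28.8% of its 150-base windows were also in AL358613.3, a transcript over both CYP26C1 and CYP26A1 that was not analysed here. CYP26B1 had 7, 16 and 9 counts against 35, 29 and 27, a log2 fold change of 1.30 ± 0.349 (adjusted p = 0.00113). CYP26C1 and CYP27C1 had no count.

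The bile acid enzymes moved in opposite directions. CYP7A1, the rate-limiting 7-alpha-hydroxylase, had 33, 38 and 49 counts with sh-ctrl and 103, 99 and 96 with sh-KIF11, a log2 fold change of 1.11 ± 0.198 (adjusted p = 4.45e-06). CYP27A1, the mitochondrial sterol 27-hydroxylase of the alternative route and the most abundant P450 gene, had 3897, 3952 and 3523 counts against 2592, 2729 and 2474. It fell by 0.74 ± 0.0497 on the log2 scale (adjusted p = 6.93e-17), with no overlap between the groups. CYP8B1, whose 12-alpha-hydroxylation directs synthesis to cholic acid, had 24, 21 and 14 counts against 7, 14 and 11. Its sh-ctrl library 3 equalled sh-KIF11 library 2 in counts and lay above it in CPM, at 0.83 against 0.676. Its log2 fold change was -1.07 ± 0.379 (adjusted p = 0.012), and the adjusted p was 0.071 without sh-ctrl library 1 and 0.0761 without sh-KIF11 library 1. ACKR2, on the opposite strand over part of the gene, had 15, 15 and 14 counts against 21, 31 and 28. CYP39A1, a 24-hydroxycholesterol 7-alpha-hydroxylase, had 0, 1 and 1 counts against 13, 13 and 9. It stayed under the filter, with a library-scaled ratio of 15.3 (95% counting interval 3.92 to 131), and had an adjusted p of 0.000101 when no filter was applied. CYP7B1 had 1 count in all and CYP46A1 none.

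**Figure D4:**
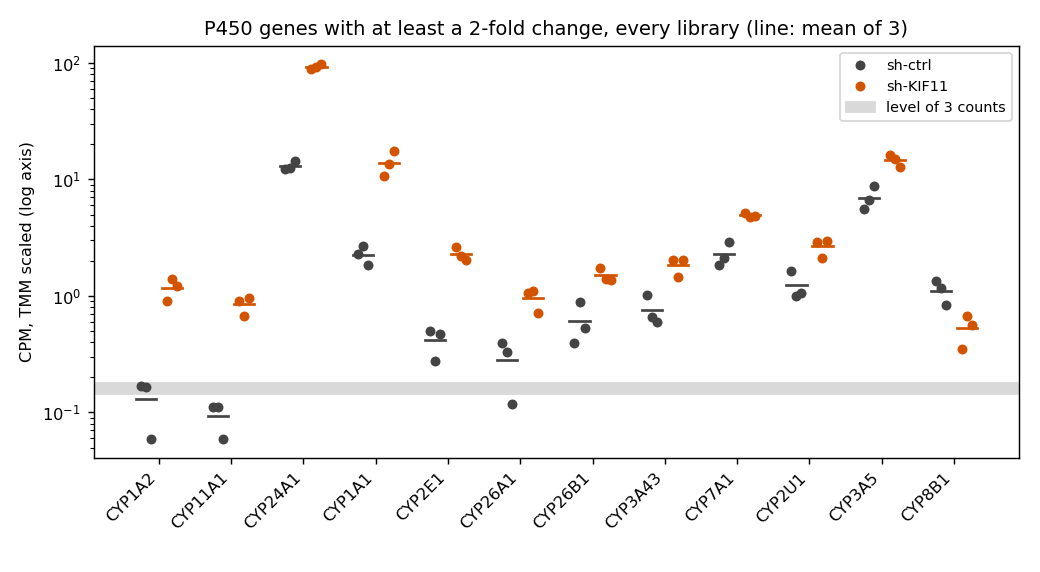
CPM in every library (points, log axis, horizontal lines mean of 3) of the 12 P450 genes called with at least a 2-fold change, sh-ctrl in grey and sh-KIF11 in orange. In each gene the groups stand apart, CYP24A1 reaches 88 to 97 CPM in sh-KIF11, and the sh-ctrl points of CYP1A2 and CYP11A1 lie near or below the grey band of 3 counts. CYP11A1, CYP1A2, CYP26A1 and CYP2E1 had passed the filter only through their sh-KIF11 level.

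Among the steroid hormone families, 3 of 6 members were tested, of which CYP11A1 was called higher and 2 did not pass. Of all tested genes 34.4% were called higher. CYP11A1, which cuts the cholesterol side chain to make pregnenolone, had 2, 2 and 1 counts with sh-ctrl and 18, 14 and 19 with sh-KIF11, a library-scaled ratio of 8.90 (95% counting interval 3.57 to 28.6) with an adjusted p of 1.43e-05. Even in sh-KIF11 it was at 0.846 ± 0.15 CPM, and it had passed the filter only through that level and so had to differ. CYP19A1, the aromatase and most abundant of the group, had 182, 215 and 160 counts against 218, 219 and 270, and the groups overlapped (0.15 ± 0.117, adjusted p = 0.254). CYP21A2, the 21-hydroxylase, was at 1.5 and 1.32 CPM (-0.18 ± 0.285, adjusted p = 0.591), and 17.2% of its windows were shared with CYP21A1P.

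In family 4, which hydroxylates fatty acids and eicosanoids, 3 of the 4 called members were lower. Of 12 members 5 were tested, where 34.7% of all tested genes fell, 34.4% rose and 69.1% were called either way. CYP4F11, the most abundant, had 368, 323 and 314 counts with sh-ctrl and 301, 362 and 311 with sh-KIF11, a log2 fold change of -0.24 ± 0.0919 (adjusted p = 0.0181). That call was lost without sh-ctrl library 1 (adjusted p = 0.124), without sh-KIF11 library 1 (0.0868) and without sh-KIF11 library 3 (0.0502), and with library totals the log2 fold change was -0.01. CYP4F2, a vitamin K and E hydroxylase, fell by 0.39 ± 0.129 on the log2 scale (adjusted p = 0.00693), with an adjusted p of 0.063 without sh-ctrl library 3 and 0.26 with library totals. CYP4F12 fell by 0.75 ± 0.155 (adjusted p = 5.17e-05), from 7.07 ± 0.582 to 4.21 ± 0.501 CPM. CYP4F3, a leukotriene B4 hydroxylase in the same cluster on chromosome 19, was at 9.94 and 10.8 CPM and did not pass (0.12 ± 0.116, adjusted p = 0.351). CYP4V2, mutated in a crystalline retinal dystrophy, rose by 0.60 ± 0.103 (adjusted p = 2.75e-06), from 10.5 to 15.8 CPM. CYP20A1, an orphan enzyme, had 519, 471 and 450 counts with sh-ctrl and 552, 589 and 524 with sh-KIF11 and did not pass (0.01 ± 0.0777, adjusted p = 0.9).

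Of the 7 tested redox partners, which give P450 enzymes their electrons, 4 fell and 1 rose, where 34.7% of all tested genes fell and 34.4% rose. POR had 5698, 5779 and 4862 counts with sh-ctrl and 3843, 3933 and 3764 with sh-KIF11, a log2 fold change of -0.70 ± 0.0502 (adjusted p = 6.51e-16). CYB5A, cytochrome b5, fell by 1.19 ± 0.0576 (adjusted p = 1.34e-21), from 144 to 63.1 CPM. On the mitochondrial side, which serves CYP24A1, CYP27A1 and CYP11A1, FDX1 was at 23.4 and 23.7 CPM (0.02 ± 0.0832, adjusted p = 0.855) and FDXR rose by 0.15 ± 0.0502 (adjusted p = 0.00652). Of 10 genes of heme synthesis and breakdown, 6 fell and 2 rose, beside the same 34.7% and 34.4% of all genes. ALAS1, the first and limiting step of heme synthesis, fell (-0.42 ± 0.0607). HMOX2, a heme oxygenase that breaks heme down, was also among the 6 (-0.50 ± 0.0595). The 2 that rose were FECH of synthesis and HMOX1, the other heme oxygenase.

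Of 21 regulators of P450 genes, 18 were tested, 4 rose and 11 fell, beside 34.4% and 34.7% of all tested genes. The 4 that rose were 3 genes of the AHR circuit and PXR. ARNT, another gene of that circuit, did not pass (0.09 ± 0.0682, adjusted p = 0.246). AHR went from 46.3 to 64 CPM (0.47 ± 0.0641, adjusted p = 2.71e-08). AHRR, the AHR repressor and itself an AHR target, had 10, 12 and 6 counts against 54, 26 and 43, below the filter's cutoff in some libraries, a log2 fold change of 1.93 ± 0.352 (adjusted p = 6.88e-06), and TIPARP, another AHR target, rose by 0.30 ± 0.0896 (adjusted p = 0.00318). NR1I2, the PXR gene, rose by 0.54 ± 0.0877 (adjusted p = 8.24e-07), while NR1I3, the CAR gene, had at most 5 counts in any library. RXRA, the shared partner of PXR, CAR, VDR and FXR, fell by 1.09 ± 0.0578 (adjusted p = 2.76e-20). NR1H4, the bile acid receptor FXR, fell by 1.45 ± 0.0738 (adjusted p = 7.57e-21), from 74.5 to 27.2 CPM.

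Around CYP7A1, 8 of the 12 other tested genes of bile acid synthesis and its feedback fell and 1, SCP2, rose, beside 34.7% and 34.4% of all tested genes. KLB and FGFR4, the receptor pair through which FGF19 represses CYP7A1, fell by 1.79 ± 0.0683 and 1.19 ± 0.053 on the log2 scale (adjusted p = 4.30e-25 and 8.69e-23). AKR1D1, the 5-beta-reductase downstream of CYP7A1, fell by 1.41 ± 0.124 (adjusted p = 2.51e-13). Of the 8 tested genes of vitamin A and D handling given here, 5 fell, 1 did not pass and 2 were called higher, but these 2 had passed the filter only through their sh-KIF11 level and so had to differ. CRABP2, which carries retinoic acid, had 7, 4 and 3 counts against 12, 14 and 23, and ALDH1A3, which makes it, had 1, 1 and 0 against 10, 12 and 20. The serum carriers fell, RBP4 of retinol by 1.55 ± 0.0489 (adjusted p = 7.26e-28) and GC of vitamin D by 2.71 ± 0.29 (adjusted p = 6.78e-11).

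**Figure D5:**
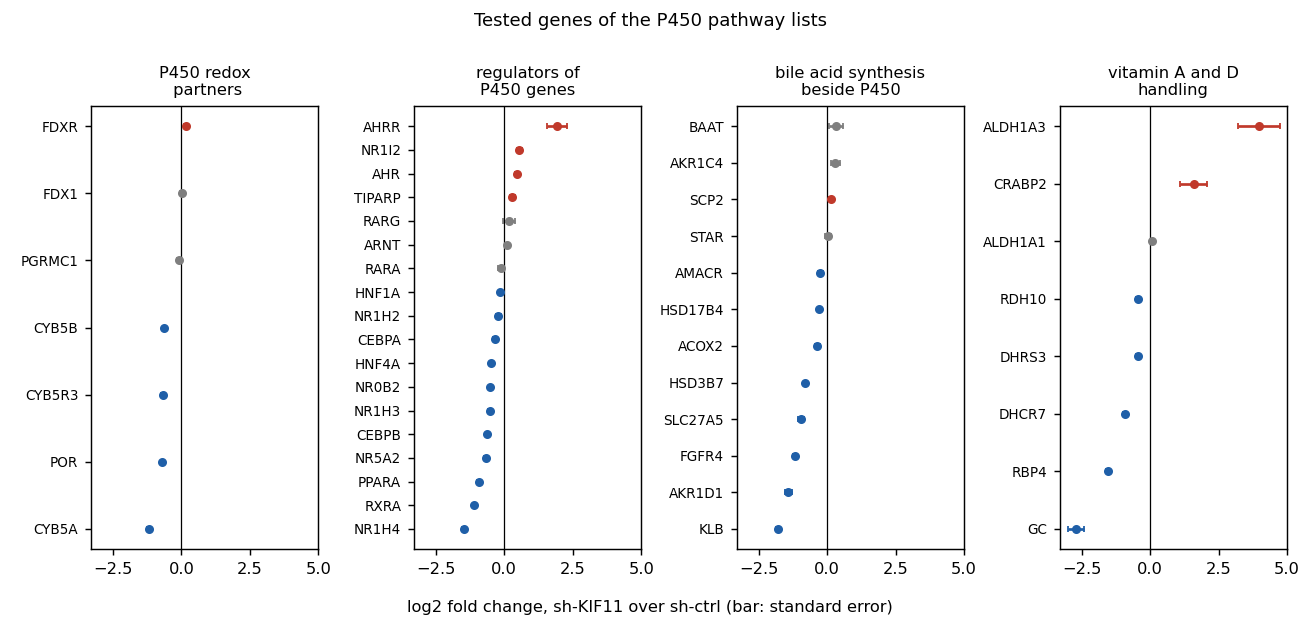
Log2 fold change of sh-KIF11 over sh-ctrl (horizontal, bars standard error) for the tested genes of 4 lists around the P450 enzymes, red higher, blue lower and grey not passed. Redox partners, regulators and bile acid genes lie mostly below 0, with AHRR, CRABP2 and ALDH1A3 farthest above it.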

How the data were processed

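The libraries were HepG2 mRNA libraries of 2 groups, sh-ctrl and sh-KIF11, with 3 libraries in each. The authors deposited whole-number read counts per gene without normalization and, for the same genes, FPKM values, which they had normalized for the length of the transcript and the depth of the library. The submitters' processing notes name bcl2fastq 1.8.4, Trimmomatic, HISAT2 2.1.0, Cufflinks 2.2.1, HTSeq 0.9.1, DESeq and the GRCh38 build, with no role for each. Whether counting used the strand of the reads is not given in the sources used here. No other sample column was in the tables, and columns of the authors' own comparisons were not used.

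The counts were fitted over the whole table in edgeR 4.0.16 under R 4.3.3. Scaling used TMM factors over the 12369 genes that filterByExpr kept, whose cutoff of 0.531 CPM is 10 counts in the median library. The quasi-likelihood test was two-sided with no covariate besides the group. Benjamini-Hochberg adjustment ran over all tested genes, and an adjusted p under 0.05 was a call. The standard error of a log2 fold change was its size divided by the square root of F. The CPM were TMM scaled. For members with 3 counts or fewer in every sh-ctrl library, the ratio of summed counts, each divided by the summed effective library sizes (total over the tested genes times TMM factor), is given with an exact 95% interval for counting error only.

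The P450 genes are the table's symbols of the form CYP, family number, letter and number, without CYP51A1. The members, the family groups and the pathway lists were chosen with earlier results of these data known. All members that passed the filter are described. Those with at least a 2-fold called change, and the most abundant member of each group by FPKM, are given with their counts. Untested members are named where a library had 5 counts or more. Pathway genes are named at a called change of at least 2-fold, together with POR, AHR, NR1I2, NR1I3, NR1H4, FDX1 and FDXR. The result of 1 gene of the lists is not reported here. CYP1B1, CYP3A7, ALAS1, ARNT, FECH, HMOX1, HMOX2, SCP2, TIPARP, VDR and the genes named for overlapping a member were singled out after their values were seen.

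The alternatives were RLE, upper-quartile and library-total scaling, a minimum of 10 counts in every library, no low-count filter, DESeq2 1.42.0, limma 3.58.1 on log2(FPKM + 1) and log2(FPKM + 0.1), leaving out each library in turn, the replicate number as a block, an adjusted p of 0.01 and other family groupings. The count over members above the cutoff in all 6 libraries and the matching backgrounds were added after seeing the data. The fits were tried on simulated counts in which few genes changed, so that trial does not check the scaling or error rate in these data. Same-numbered libraries of the groups deviated together with correlations of 0.03, -0.0185 and -0.00253, so the numbers were not treated as pairs. Promoter windows are RefSeq sequences of GRCh38.p14. Transcript overlaps and shared 150-base windows are from GENCODE release 29.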

Additional observations from a re-analysis of the deposited data

How the results depend on the processing

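Of the 16 refits and thresholds run for single genes, the minimum of 10 counts in every library left 6 called members untested (CYP11A1, CYP1A2, CYP26A1, CYP26B1, CYP2E1 and CYP8B1). Wherever a called member was tested it kept its direction. Calls were lost by test in at least 1 setting for CYP2D7, CYP4F11, CYP4F2 and CYP8B1, and CYP3A7 gained one under several. CYP19A1, CYP20A1, CYP27B1 and CYP4F3 passed with library totals alone. Genes that had not passed changed sign as follows. CYP20A1 was at -0.0154, -0.0064 and -0.0141 without sh-ctrl replicate 2, sh-ctrl replicate 3 and sh-KIF11 replicate 2 and reached 0.0657 without another library, CYP2D6 was at -0.0206 and -0.0337 without sh-ctrl replicate 3 and sh-KIF11 replicate 1 and reached 0.2374, and CYP21A2 at 0.0508 with library totals and at 0.0430 and 0.1210 in limma on log2(FPKM + 1) and log2(FPKM + 0.1).

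Leaving out each library in turn gave 14 to 16 P450 genes higher and 4 to 6 lower, 8 to 9 of families 1 to 3 higher and 1 lower, and 4 to 5 sterol, bile acid and vitamin genes higher and 1 to 2 lower. The median log2 fold change ranged from 0.85 to 0.98 in families 1 to 3 and from 1.03 to 1.38 in the sterol, bile acid and vitamin families. For those 2 medians, library totals gave 1.1693 and 1.3413, no low-count filter 0.7559 and 1.2913, at least 10 counts in every library 0.7777 and 0.8778, and limma on log2(FPKM + 1), a scale that shrinks low genes, 0.2962 and 0.2266. For the sterol, bile acid and vitamin families alone the median was 1.1894 with upper-quartile scaling, 0.9430 in limma on log2(FPKM + 0.1), 1.0247 with CYP2R1 added and 0.8517 with the steroid hormone families added. These families had 2 genes higher and 1 lower with at least 10 counts in every library, where fewer genes were tested, and 1 lower at an adjusted p under 0.01. Among members above the cutoff in all 6 libraries, a choice made after seeing the data, they had 2 higher and 1 lower, with medians of 0.7520 in families 1 to 3 and 0.8517 in the sterol, bile acid and vitamin families. With the replicate number as a block, 15 P450 genes were higher and 6 lower and the medians were 0.9545 and 1.1162, and it changed no call. The causes of these shifts were not tested beyond what the settings themselves change. Counts under about 10 in a library limit CYP1A2, CYP2E1, CYP11A1, CYP26A1, CYP26B1, CYP39A1, CYP8B1 and the untested members.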
